A study of Mus musculus with 2 samples.

Results

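The 9 genes Egfl7, Ecscr, Myct1, She, Cd93, Plvap, Esm1, Gpihbp1 and Aqp1 were followed through RNA sequencing of lymphatic endothelial cells (LECs, the cells that line lymphatic vessels) from mouse embryonic skin. They were chosen by symbol as genes largely restricted to endothelium that belong to neither the junction nor the adhesion families. All 9 of these 9 symbols were found among the 24319 rows of each deposited list. The control library is labelled wild type and the other Dot1l knockout. Dot1l encodes the methyltransferase of histone H3 lysine 79. Both libraries are from C57BL/6 skin at E15.5 (embryonic day), and each is 1 pool of RNA from 2 to 3 biological replicates. The protocols call the mutant Dot1lΔEC, which places the deletion in endothelium. The labels name no Cre driver, deleted exon or purification step. They attach a growth protocol for cultured dermal LECs to both samples without saying whether the sequenced cells had been cultured. The series title names EPZ5676, an inhibitor of DOT1L, and no label records treatment of either library with it.

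With 1 library a genotype there is no replicate, so no difference below has an error or a test. Levels are the FPKM deposited by the authors, that is, fragments scaled to transcript length and to library size. Ratios compare those FPKM directly. Log2 differences are on the log2(FPKM + 1) scale, library labelled knockout minus control; the added 1 makes differences of faint genes look smaller than their ratios. Genes at 1 FPKM or more in at least 1 library count as tested, which here means only that they enter the counts. A faint gene can pass this bound on few fragments, as Esm1 does below. A gene is called lower or higher when its log2 difference reaches 2-fold.

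The second library did not resemble the control in its cell markers. Its 19 macrophage markers summed to 5156 FPKM against 67.5 in control, with C1qc at 0 in control, and its 10 mast cell markers to 12991 against 105, with Fcer1a at 0 in control. The 12 fibroblast markers summed to 1003 FPKM against 4298, and the 11 pericyte and smooth muscle markers to 32.4 against 208. The control thus held RNA of other cell types too: its 23 general endothelial genes, described below, summed to 1884 FPKM. Sums over different lists do not give shares of cells. Levels of the 9 genes are those of a whole library, and which cells they come from was not tested. Dot1l was 5.86 FPKM in control against 10.4, and the value covers the whole gene, so it does not check the label. The second library is therefore called the library labelled knockout. In bulk RNA, fewer cells of a type and less RNA per cell cannot be told apart. The part that these markers play in the values of the 9 genes was not tested.

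Endothelial cells carry a set of proteins that face the blood or lymph, sit in the vessel's exchange structures or are released into the matrix around it. EGFL7 is a secreted matrix-bound protein of growing vessels, and ESM1 (endocan) is a secreted proteoglycan made by tip cells, the leading cells of a vessel sprout, under VEGF signalling. CD93 and ECSCR are single-pass surface proteins that act in endothelial adhesion and migration, PLVAP builds the diaphragms of caveolae and fenestrae, GPIHBP1 carries lipoprotein lipase to the capillary lumen, and AQP1 is a water channel. MYCT1 is a small membrane protein of endothelium. SHE differs from the rest: it is an SH2-domain adaptor inside the cell, so the name endothelial surface and secreted genes covers it only loosely. Cd93 is also expressed by myeloid cells and Aqp1 by red blood cells.

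Every one of the 9 genes had a lower level in the library labelled knockout, by between 2.03 and 5.42 times. All 9 were tested and all 9 were at least 2-fold lower, none higher. Among all 13296 genes tested, 2060 were at least 2-fold lower, a share of 15.49%, and 2231 were at least 2-fold higher, a share of 16.78%. After both libraries were brought to a sum of 1000000 these became 3330 lower and 1900 higher, the all-gene median shifted by -0.33, and the 9 genes were all at least 2-fold lower still. The median log2 difference of the 9 genes was -1.48, beside 0.00 over all genes tested. Summed over the 9, the level was 595 FPKM in control against 230 in the library labelled knockout. The genes are a small list chosen with these results known, so the count describes them and is no test.

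**Figure D1:**
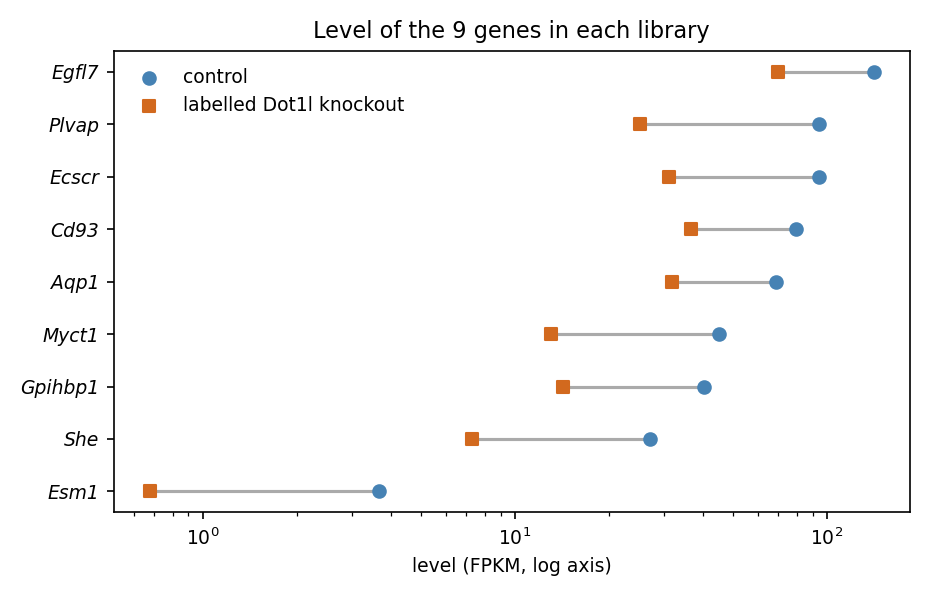
Level of each of the 9 genes in FPKM on a log axis, with the control library as circles and the library labelled Dot1l knockout as squares (1 library each, no error bars). Every square lies to the left of its circle; Egfl7 is the highest gene in both libraries and Esm1 the lowest.

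The secreted genes Egfl7 and Esm1 lay at the 2 ends of the range of FPKM ratios. On the log2(FPKM + 1) scale Esm1, at -1.48, was the median of the 9. Egfl7 was 141 FPKM in control against 69.7 in the library labelled knockout, 2.03 times lower, which is the smallest ratio of the 9. Its log2 difference of -1.01 is close to the 2-fold line and became -0.97 with a pseudocount of 5. Egfl7 was the most abundant of the 9 in both libraries, ranking 433 of 16181 genes above 0 in control and 1125 of 16376 in the other. Its relatives with EGF-like repeats were lower as well: Egfl8 was 9.59 and 3.78 FPKM, and Egfl6 was 54.2 and 14.6.

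An intron of Egfl7 holds miR-126, the best known endothelial microRNA. Its mature arm is shown because host gene and microRNA share a transcript, with the seed (bases 2 to 8) in capitals, from RefSeq on GRCm38.p6, chr2:26591402-26591423, + strand.
miR-126a-3p: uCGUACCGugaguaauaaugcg
The rows Mir126a and Mir126b were both listed at 0 in both libraries, which says nothing of the mature microRNA, since a value listed at exactly 0 can be a failed estimate and these were not small RNA libraries. The level of Egfl7 is thus the only value bearing on this locus here.

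Esm1 was the faintest gene, at 3.67 FPKM in control against 0.677 in the library labelled knockout. That is 5.42 times lower, the largest ratio of the 9, and it rests on few reads: about 72 and 12 fragments, by the depth estimated below. Its log2 difference was -1.48 with a pseudocount of 1, -2.28 with 0.1 and -0.61 with 5, so the size of the difference depends on the pseudocount. Among 10 other genes of VEGF-stimulated tip cells and their matrix, 6 were at least 2-fold lower, 1 higher and 3 within 2-fold, with a median of -1.65. Apln, the apelin ligand, was 20.9 and 1.94 FPKM, and Dll4, the Notch ligand, 13.5 and 4.05. Angpt2 was within 2-fold at 45.6 and 40.1 FPKM, and the one higher gene was Kcne3, a potassium channel subunit, at 9.02 and 134.

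The depth behind these values was estimated from the steps in the low FPKM, where FPKM times transcript length goes up in equal steps, 1 per fragment. The steps gave about 10380000 fragments for control and 9250000 for the library labelled knockout, if no further scaling was applied. With the annotated transcript lengths, the other 4 genes with a single annotated transcript had estimated fragments of 1242 and 320 (Myct1), 1756 and 416 (Plvap), 1734 and 719 (Aqp1), and 5352 and 2202 (Cd93). Of these 5 genes, Esm1 rests on the fewest fragments in both libraries.

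Of the surface receptors, Cd93 differed less than Ecscr. Cd93 was 79.6 FPKM in control against 36.7 in the library labelled knockout, 2.17 times lower. Ecscr was 94.4 and 31.1 FPKM, 3.03 times lower. Cd93 belongs to the group XIV C-type lectins, and its relatives and its ligand were all at least 2-fold lower, 4 of 4 with a median of -2.33. Clec14a, the endothelial relative that also binds multimerin 2, was 56.4 and 8.28 FPKM, and Mmrn2, which encodes that matrix ligand, 44.5 and 10.2. Thbd, the thrombin receptor thrombomodulin, was 20.1 and 9.19, a ratio of 2.19 that is near that of Cd93. Cd248, the stromal member of the family, was 40.6 and 5.06. Within each library, Cd93 stood at 1.41 times Clec14a in control and 4.44 times in the library labelled knockout, a ratio that library scaling does not touch. Macrophage markers were higher in that library (19 of 19 at least 2-fold, median 6.06), and macrophages and their precursors can express Cd93; their part in the value was not tested.

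Plvap and Gpihbp1 are the exchange genes of the set, known chiefly from capillaries. Plvap was 94.6 FPKM in control against 25.2 in the library labelled knockout, 3.76 times lower, with a log2 difference of -1.87 that was the lowest of the 9. It was the second most abundant of the 9 in control, level with Ecscr, and the fifth in the library labelled knockout. The caveola genes in which PLVAP diaphragms sit were lower in most cases: of 8 other genes, 6 were at least 2-fold lower, 1 higher and 1 within 2-fold, with a median of -2.11. Cav1, the main caveolin of endothelium, was 822 and 104 FPKM, the cavin gene Ptrf 223 and 48.1, and the cavin gene Sdpr 436 and 64.2. Ehd4, an EHD-family ATPase, was the higher gene at 32.3 and 127, and Pacsin2, a membrane-bending protein, was within 2-fold at 55.0 and 69.5. Caveolae are also common in fibroblasts and smooth muscle, whose markers were lower too (11 of 12 fibroblast genes at least 2-fold lower, median -1.94, and 10 of 10 tested pericyte and smooth muscle genes, median -2.56). Their part in the caveola values was not tested.

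Gpihbp1 was 40.4 FPKM in control against 14.3 in the library labelled knockout, 2.83 times lower. Of 10 other tested genes of lipoprotein lipolysis and fatty acid uptake, 5 were at least 2-fold lower and 5 within 2-fold, with a median of -1.004. Lpl, the lipase that GPIHBP1 carries, was 33.7 and 18.4 FPKM, and its inhibitor Angptl4 13.3 and 4.09. Meox2 and Tcf15, transcription factors that drive fatty acid uptake genes in capillary endothelium, were 52.3 and 10.3 and 7.88 and 0.575. Cd36, a fatty acid receptor that macrophages and adipocytes share, was 153 and 74.1, and Fabp5 was within 2-fold at 353 and 373. Gpihbp1 stood at 1.20 times Lpl in control and 0.777 times in the library labelled knockout.

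Aqp1 was 68.8 FPKM in control against 32.0 in the library labelled knockout, 2.15 times lower. No other aquaporin came near it: of 10 relatives, 8 stayed under 1 FPKM in both libraries. Aqp3, the aquaglyceroporin of epidermis, was 0.685 and 5.89 FPKM, and Aqp7, the glycerol channel of fat cells, was 2.16 in control and listed at 0 in the other library. Keratinocyte markers went the other way from Aqp3: 6 of 10 were at least 2-fold lower, none higher and 4 within 2-fold, with a median of -1.16. Which cells the Aqp3 value comes from was not tested. Erythroid markers, given because red cells carry AQP1, had a median of -0.35 and a summed level of 333 and 131 FPKM. Of 7 tested, 2 were at least 2-fold lower, 1 higher and 4 within 2-fold. The higher gene was Gata1, at 0 in control and 6.24 FPKM in the library labelled knockout, where all 10 mast cell markers were also higher. Klf1, of the same erythroid list, was at 0 and 0.400 FPKM. Which cells the Gata1 value comes from was not tested. Slc4a1, the anion exchanger of the red cell membrane, was 1.11 and 0.647 FPKM. Of the globin genes, Hba-a1 was 174 and 25.1 FPKM, 6.93 times lower in the library labelled knockout, and Hbb-b1 was 130 and 76.6. Both stood above Aqp1 in control. Hbb-b2 was 18.3 and 7.87 FPKM and Hbb-y 5.37 and 7.08, while Hba-a2 and Hbb-bh1 stayed under 1 FPKM in both libraries. The part of red cells in the level of Aqp1 was not tested.

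Myct1 and She were lower by similar ratios. Myct1 was 45.2 FPKM in control against 13.1 in the library labelled knockout, 3.46 times lower. She was 27.1 and 7.31 FPKM, 3.70 times lower. Of the other SH2 adaptors, Shb was 2.77 and 3.43 FPKM, Shf 3.09 and 1.26, and the broadly expressed Shc1 37.3 and 21.9. All 3 tested lay within 2-fold on the log2(FPKM + 1) scale. By FPKM ratio, the measure given for She, Shf was 2.45 times lower in the library labelled knockout.

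The order of the 9 levels was partly kept. Egfl7 came first, She eighth and Esm1 ninth in both libraries. In control, Plvap (94.6 FPKM) and Ecscr (94.4 FPKM) were level, followed by Cd93, Aqp1, Myct1 and Gpihbp1. In the library labelled knockout Cd93 (36.7 FPKM) and Aqp1 (32.0 FPKM) stood above Ecscr (31.1 FPKM), and Plvap (25.2 FPKM) came next. The highest of the 9 was 38.5 times the lowest in control and 103 times in the library labelled knockout. Without replicates, neighbours such as Aqp1 and Ecscr in the library labelled knockout cannot be ordered. By rank among all genes above 0, which is also free of library scaling, Plvap went from 679 to 3385, She from 2804 to 7627 and Cd93 from 827 to 2307, and all 9 held a lower percentile in the library labelled knockout.

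Set against 23 other endothelial genes, most of the 9 lay on the less reduced side of the median, and the count depended on the pseudocount. There, 18 of 23 genes lay at least 2-fold lower, none higher and 5 within 2-fold, with a median of -1.90 and a range from -3.84 (Ramp2, the adrenomedullin co-receptor) to 0.91 (Tal1, a transcription factor of blood cells and endothelium). With a pseudocount of 1, all 9 genes had a log2 difference above that median, by 0.03 for Plvap up to 0.89 for Egfl7, and their own median was 0.42 above it. With a pseudocount of 0.1 it was 8 of 9, with Esm1 at -2.28 below a list median of -1.96, and with a pseudocount of 5 it was again 8 of 9, with Plvap at -1.72 below a list median of -1.70. Against the mean of the list, Plvap was -0.06 and the other 8 were above. For Egfl7, Cd93 and Aqp1, 18 of the 23 genes had a lower difference than theirs, for Ecscr and Myct1 14, and for Plvap 12. The 9 spanned -1.87 to -1.01 with a pseudocount of 1. A range tends to widen with the number of genes, so that of 9 genes cannot be compared with that of 23. Genes of lymphatic identity had a median of -2.06, with 9 of 12 tested at least 2-fold lower, 2 higher (Itga9 and Stab1) and Lyve1 within 2-fold. No test of the difference between these lists was made.

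**Figure D2:**
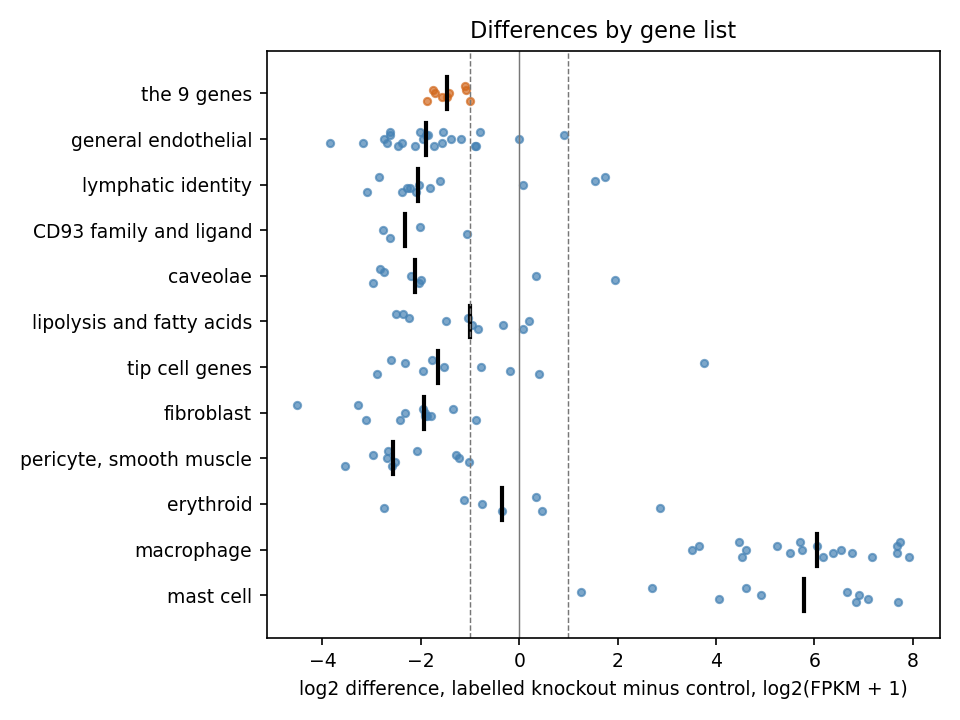
Log2 difference of each tested gene, library labelled knockout minus control on the log2(FPKM + 1) scale, by gene list, with each list's median as a black bar; dashed lines mark 2-fold, and the 9 genes are left out of the other lists. The 9 genes lie between -1.87 and -1.01, the general endothelial list reaches from -3.84 to 0.91, and the macrophage and mast cell lists lie to the right at medians of 6.06 and 5.79.

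**Figure D3:**
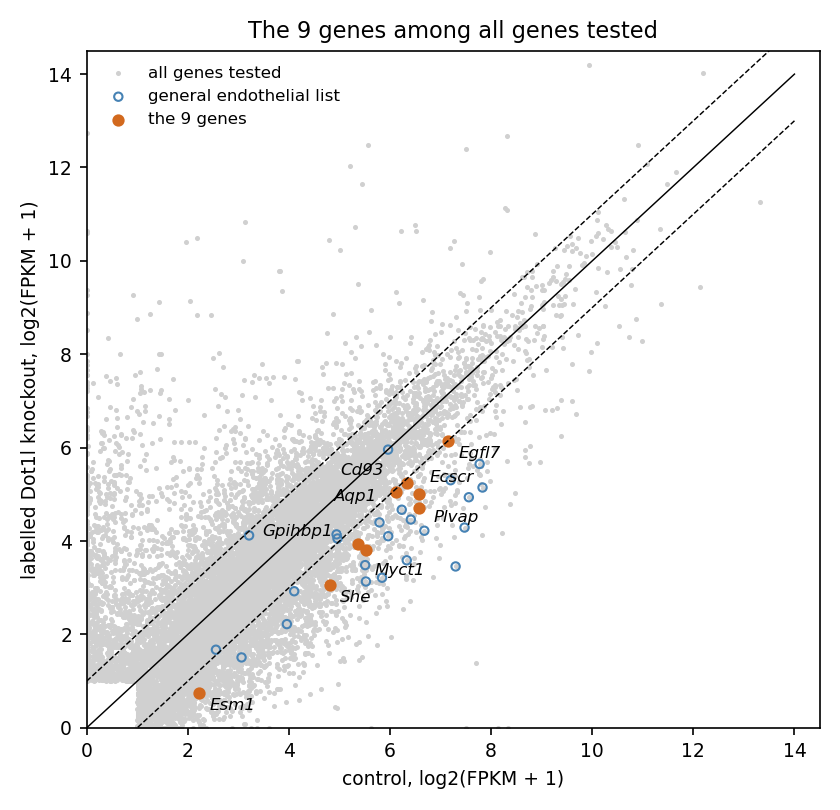
Level in the library labelled knockout against control, both as log2(FPKM + 1), for all 13296 genes tested (grey), the 23 general endothelial genes (open circles) and the 9 genes (filled); the solid line is equality and the dashed lines 2-fold. Egfl7 lies on the lower 2-fold line and the other 8 below it.

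At a stricter bound of 3-fold on the log2(FPKM + 1) scale, Myct1, She and Plvap remained, 3 of the 9, beside 6.814% of all genes tested, and none of the 9 was 3-fold higher, beside 9.762%. The other 6 fell between 2-fold and 3-fold: Ecscr at -1.57, Esm1 at -1.48, Gpihbp1 at -1.44, Cd93 at -1.09, Aqp1 at -1.08 and Egfl7 at -1.01. With a pseudocount of 5, 6 of the 9 remained at least 2-fold lower, and Egfl7, Aqp1 (-0.996) and Esm1 (-0.61) lay within 2-fold. All 9 kept a negative difference under each of the 5 pseudocounts and scalings tried.

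**Figure D4:**
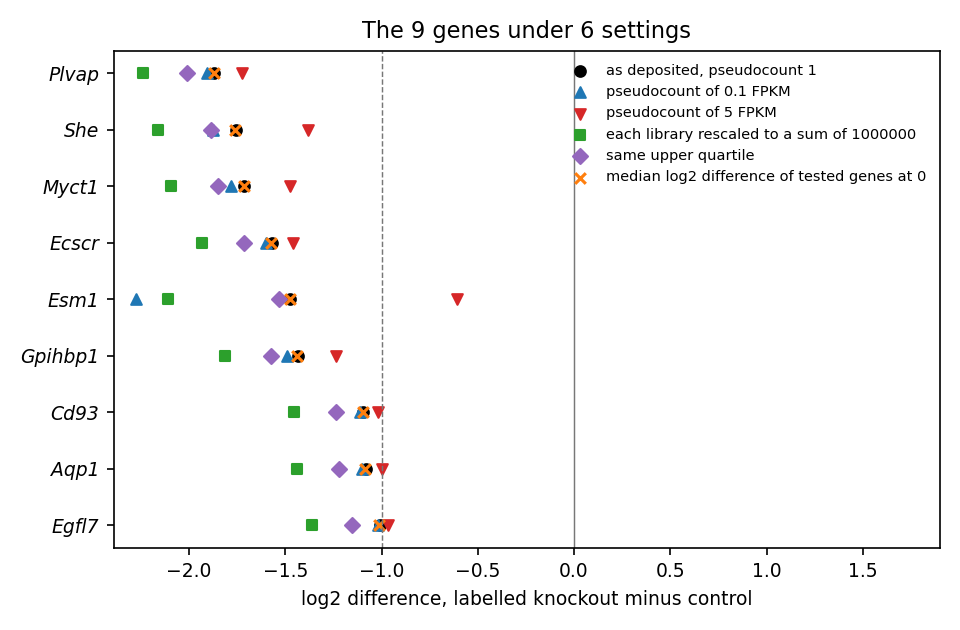
Log2 difference of the 9 genes under the deposited scale with a pseudocount of 1 and under 5 other settings, with 2-fold lower as the dashed line. All points lie left of 0; Esm1 spreads most, from -2.28 to -0.61, and Egfl7, Aqp1 and Esm1 cross the dashed line with a pseudocount of 5.

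The promoters of these genes were read because the genes share a direction and because endothelial genes are known to use ETS-family factors, which bind a short purine-rich core. RefSeq promoter windows (250 bases before to 50 after the start, GRCm38.p6) were matched by symbol for 5 of the 9 genes, with 7 windows: 3 for Egfl7 and 1 each for She, Aqp1, Myct1 and Esm1. Ecscr, Cd93, Plvap and Gpihbp1 had no entry. In all, 5 motifs were searched on both strands. For ETS factors the letters were CCGGAA in one spelling and, as a separate and more common spelling of such a site, AGGAAG. For the SOX family, which includes regulators of lymphatic and arterial identity, the letters were AACAAT. For the family of zinc finger factors that includes GATA2, a regulator of lymphatic valves, they were AGATAA. The core promoter element at which the basal transcription machinery assembles, the TATA box, was searched as TATAAA. No match overlapped another in these windows. Below, the 250 bases before the start are printed for the first Egfl7 window, Aqp1 and Myct1, which hold matches, and for She, which holds none, with matches in capitals; a match to AGGAAG on the other strand reads CTTCCT.
Egfl7 promoter, chr2:26580833-26581082, + strand: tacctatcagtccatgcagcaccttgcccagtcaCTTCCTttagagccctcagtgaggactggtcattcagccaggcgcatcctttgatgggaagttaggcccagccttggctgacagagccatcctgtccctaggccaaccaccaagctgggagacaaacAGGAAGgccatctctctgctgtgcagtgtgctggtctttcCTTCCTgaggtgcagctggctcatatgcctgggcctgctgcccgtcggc
Aqp1 promoter, chr6:55336049-55336298, + strand: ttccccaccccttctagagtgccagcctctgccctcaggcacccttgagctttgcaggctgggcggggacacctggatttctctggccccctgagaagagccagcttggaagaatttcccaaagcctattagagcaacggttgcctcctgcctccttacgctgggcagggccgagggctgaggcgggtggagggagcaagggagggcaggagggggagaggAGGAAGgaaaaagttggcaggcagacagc
Myct1 promoter, chr10:5593478-5593727, + strand: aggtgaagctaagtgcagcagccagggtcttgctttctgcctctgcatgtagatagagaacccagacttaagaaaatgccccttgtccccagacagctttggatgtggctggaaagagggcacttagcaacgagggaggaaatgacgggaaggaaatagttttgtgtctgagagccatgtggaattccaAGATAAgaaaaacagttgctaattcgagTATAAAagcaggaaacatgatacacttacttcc
She promoter, chr3:89831120-89831369, + strand: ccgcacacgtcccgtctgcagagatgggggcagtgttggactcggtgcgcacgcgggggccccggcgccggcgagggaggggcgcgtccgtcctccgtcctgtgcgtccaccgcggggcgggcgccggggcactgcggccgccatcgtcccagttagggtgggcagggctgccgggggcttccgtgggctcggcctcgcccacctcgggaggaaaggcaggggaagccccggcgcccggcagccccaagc
AGGAAG was present in 4 of the 7 windows, from 3 of the 5 genes, beside 35.4% of all 32851 windows. In the first Egfl7 window it occurred 3 times, at -216 to -211, -89 to -84 and -49 to -44 counted from the start at 0, and in the Aqp1 window once, at -29 to -24. The Myct1 window held AGATAA at -61 to -56 and TATAAA at -33 to -28, and an AGGAAG on the other strand whose last base is the start itself and which is not in capitals. AGATAA and TATAAA were each in 1 of the 7 windows, beside 11.2% and 13.6% of all windows. CCGGAA and AACAAT were in none of the 7 windows, beside 14.9% and 10.7% of all windows.

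The windows did not share base composition. That of She was 75.7% G and C with 39 CG pairs, and that of Myct1 43.3% with 5, beside medians of 52.7% and 7 over all windows. These 2 genes had nearly the same ratio between the libraries (3.70 and 3.46), and any relation of base composition to the ratios was not tested. Esm1, at 46.3% G and C, held none of the 5 motifs. A match is a description of letters, and no value here bears on which factors bind.

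The genomic neighbours of the 9 genes were also read. Taking the nearest protein-coding gene in the files on each side, from the order in RefSeq's GRCm38.p6 table, 13 of 18 neighbours were tested, of which 3 were at least 2-fold lower, 1 higher and 9 within 2-fold, with a median of -0.35. Among all genes tested, 15.49% were at least 2-fold lower, 16.78% higher and 9005 of 13296 inside 2-fold, with a median of 0.00. With only 13 neighbours, no difference from these shares can be read. Notch1, next to Egfl7, was 15.8 and 12.2 FPKM, and Agpat2, on its other side, was 3.12 and 6.14. Bst2, next to Plvap, was 11.2 and 20.2, and Il6ra, next to She, was 0.245 and 12.7. The 3 lower neighbours were Dnajc18 beside Ecscr (15.2 and 6.74), Syne1 beside Myct1 (15.3 and 4.40) and Thbd beside Cd93 (20.1 and 9.19). Plvap overlaps Gtpbp3 and Gm46041 in that table and Esm1 overlaps Gm41069, and the labels do not say whether counting used strand, so reads of the shared stretches cannot be assigned with certainty.

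For each of the 9, the 2 genes with the nearest pair of levels were found by Euclidean distance in log2(FPKM + 1) over the 2 libraries. They were Tsc22d1 and Fkbp9 for Egfl7, Dst and Arrdc3 for Ecscr, Cyb5r3 and Rasip1 for Myct1, Prex2 and Bckdhb for She, and Rwdd1 and Smyd2 for Cd93. For Plvap they were F2r and Col5a1, for Esm1 Scrn1 and Zfp11, for Gpihbp1 Mal and Fkbp10, and for Aqp1 Pin4 and Pros1. F2r, the thrombin receptor PAR1, was 95.7 and 26.1 FPKM, and Col5a1, a fibrillar collagen chain, was 90.7 and 24.8, beside 94.6 and 25.2 for Plvap. Over only 2 libraries many genes share a pair of levels, so likeness here describes position in the plot of all genes and nothing more.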

How the data were processed

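RNA sequencing values of 2 libraries, 1 per genotype, were used. Per the submitters' processing notes, STAR 2.5.2b, Cufflinks 2.2.1, Cuffnorm, R 3.3.2 and the build mm9 were used, and per the labels' protocols RNA with an integrity number above 7.0 went into ScriptSeq v2 libraries. The roles of these tools, the annotation and any scaling between libraries are not stated in the labels. The FPKM values were taken as deposited by the authors; the unit follows from the named tools and from sums of 415537 and 530294. Both lists hold the same rows, 27 of them with symbols turned into dates.

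Differences were computed in Python 3.11.15 (numpy 2.4.6, pandas 2.3.3) as log2(FPKM + 1), with a minimum of 1 FPKM in either library and a 2-fold bound. With 1 library a genotype, no test, p-value or error was computed. Depth was estimated by scanning 500 steps over the low values (at most 5 fragments) of genes whose only annotated transcript has 2500 nt or more, taking fragments as 200 nt long. At the best step, 78.2% of the 165 values used in control and 72.4% of the 181 used in the library labelled knockout came within 0.1 of whole fragments. This was not enough to recover reads, and no model for counts was fitted. The threshold count and the depth scan returned the planted answers on simulated data. Those data held no noise and no error in length, so this checks the code and not the accuracy on these libraries. The members, the 17 gene lists, the motifs and the alternatives were chosen with earlier results of these data known. Named genes are the 9 members, Dot1l, genes of the lists and the 2 nearest genes of each member; neighbouring genes and the within-library ratios were added after the values were seen. Alternatives were pseudocounts of 0.1 and 5, 3 scalings, no minimum or 5 FPKM, bounds of 1.5-fold and 3-fold, and another centre for the endothelial list. Protein sequences were not analysed here.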

Additional observations from a re-analysis of the deposited data

How the results depend on the processing

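No paired analysis was possible because there is only 1 library of each genotype; for the same reason none could be left out. The count of 9 genes at least 2-fold lower stayed between 6 and 9 under the alternatives except the 3-fold bound, which left 3, and none was higher under any alternative. Over all genes tested, the 2060 lower and 2231 higher became 921 and 1323 with a pseudocount of 5, 3450 and 3464 at 1.5-fold, and 906 and 1298 at 3-fold, and after both libraries were brought to a sum of 1000000 there were 3330 lower. The median of the 9 genes lay 0.42 above that of the general endothelial list, 0.33 above its mean, and 0.45 above its median without 5 genes that blood cells also express. The median of the aquaporins went from -1.08 to 0.48 with a minimum of 5 FPKM, where 2 genes are left. Depth limits Esm1 most, at about 12 fragments in the library labelled knockout.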
